A study of Mus musculus with 10 samples.

Results

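The genes described here encode the respiratory chain and the ATP synthase of mitochondria, together with a family of factors that help to assemble complex I. The rule that defines them rests on gene symbols and takes every protein-coding mouse gene whose symbol starts with Nduf, Uqcr, Atp5 or Cox4 to Cox8, the genes Sdha, Sdhb, Sdhc and Sdhd, and the protein-coding genes of the mitochondrial genome. It found 107 of the 36047 genes to which the deposited transcripts could be joined, of which 94 lie in the nuclear genome and 13 in the mitochondrial genome.

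The RNA came from hepatic stellate cells, the vitamin A-storing cells of the liver sinusoid that can turn into matrix-producing myofibroblasts. Cells isolated in the quiescent state from male C57BL/6 mice were cultured for 5 h and then spent 4 h in starving medium, either with recombinant mouse amphiregulin (Areg, 500 ng/mL), which binds and activates the EGF receptor, or as the control. Each condition had 5 poly-A selected libraries of 10125184 to 20057962 estimated counts. Both groups were starved and held in culture, and no uncultured cells were part of the comparison. Nothing in the labels tells if a library stands for its own animal or culture. The p-values therefore rest on library-to-library spread alone, and that spread may be technical. In such bulk samples, a change in the number of cells of a type and a change in RNA per cell cannot be told apart.

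The respiratory chain passes electrons from NADH (through complex I) or from succinate (through complex II) to ubiquinone, then through complex III and cytochrome c to complex IV, which reduces oxygen. Complexes I, III and IV pump protons across the inner mitochondrial membrane, and the ATP synthase, complex V, uses their return to make ATP. Complexes I, III, IV and V join proteins of both genomes, while complex II is entirely nuclear. The mitochondrial genes are transcribed from both strands of a small circular genome into long precursors that are cut into messenger RNAs. All of these except that of mt-Nd6 carry a short poly-A tail. In stellate cells, a shift between quiescence and activation is known to come with changes of energy metabolism.

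Of the 107 genes, 99 had enough reads to be tested, 86 nuclear and all 13 mitochondrial. The other 8 are described with the tissue-restricted subunits and with the overlapping gene models. Against the control, 13 genes were higher with Areg and 1 was lower at an adjusted p under 0.05 in edgeR's quasi-likelihood test, and 85 did not pass. Over all 13362 genes tested, 8.34% were called higher and 8.32% lower. DESeq2, which called 11.3% of 12119 genes higher and 10.1% lower, called 17 of the chain's genes higher and 1 lower. The mitochondrial genes held 7 of the 13 that rose, 7 of 13 tested, with none lower. The nuclear genes held the other 6, from 86 tested, a share near the background, and the gene that fell. The median log2 fold change was 0.21 over the mitochondrial genes and 0.04 over the nuclear ones, beside -0.01 over all genes tested. All 5 Areg libraries lay above all 5 controls for 4 mitochondrial and 6 nuclear genes, and below them for 1 nuclear gene. Over all genes tested, 7.64% were separated upward in this way and 7.06% downward.

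**Figure D1:**
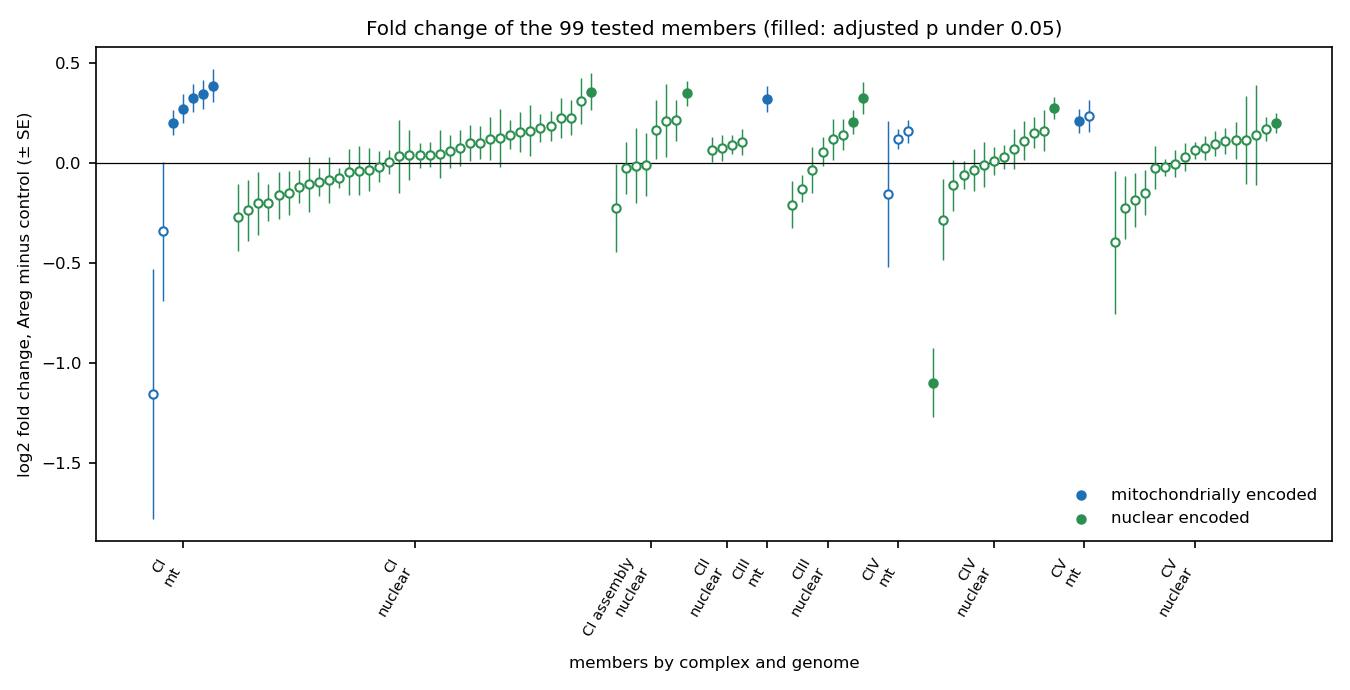
Log2 fold change (Areg minus control, vertical axis) of each tested gene with its SE as a bar, ordered within complex and genome along the horizontal axis. Blue marks mitochondrially encoded and green nuclear encoded genes, and filled points passed an adjusted p under 0.05. Most green points lie close to 0, the single filled green point far below is Cox6b2 at -1.10, and 10 of the 13 blue points lie above 0.

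Some facts of the whole data set touch these values. Controls 3 and 4 stood apart on the first principal component, at 46.6 and 28.6, while the other 8 libraries lay between -16.5 and 0.455. Control 1 had the lowest value of the 10 libraries for 64 of the 86 nuclear genes (74.4%) and control 3 the highest for 40 (46.5%). Over all genes tested, control 1 was the lowest for 13.4% and control 3 the highest for 23%. Defining genes of stellate cells were present, with Gfap the exception at 0.202 ± 0.253 CPM (read counts scaled to the size of each library) in the controls and 0.278 ± 0.208 CPM with Areg (SD, n = 5 each). The summed level of the 14 quiescent stellate cell markers was 12103 to 12793 CPM in the controls and 11499.6 to 11949 CPM with Areg, and of the 13 tested 5 fell and none rose. The summed levels were 1457 to 2414 and 1686 to 2113 CPM for 12 hepatocyte markers, 665 to 740.5 and 658 to 712 CPM for 12 macrophage markers, and 5888 to 6276 and 5912 to 6035 CPM for 11 endothelial markers. The 9 cholangiocyte markers summed to 40.5 to 50.7 and 82.4 to 95.7 CPM, most of it Spp1, and the 10 lymphocyte markers to 0.651 to 2.83 and 1.23 to 1.71 CPM, with Ncr1 at 0 in every library. The part of these other cell types in the results was not tested.

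The mitochondrially encoded messenger RNAs made up 2.88 ± 0.155% of the estimated counts in the controls and 3.28 ± 0.279% with Areg (SD, n = 5 each). The share ran from 2.67 to 3.09% in the controls and from 2.93 to 3.62% with Areg, so the groups overlapped. The 94 nuclear genes together held 0.355 ± 0.0275% and 0.359 ± 0.00553%. Here the controls spread from 0.311% in control 1 to 0.386% in control 3, and all 5 Areg libraries lay inside that range, between 0.351 and 0.366%. On the per-length scale of TPM (read counts divided by effective transcript length and scaled to library size), the mitochondrial genes summed to 65500.4 ± 4634 in the controls and 73762 ± 7079 with Areg. The nuclear genes summed to 8639 ± 704 and 8597 ± 124 TPM.

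**Figure D2:**
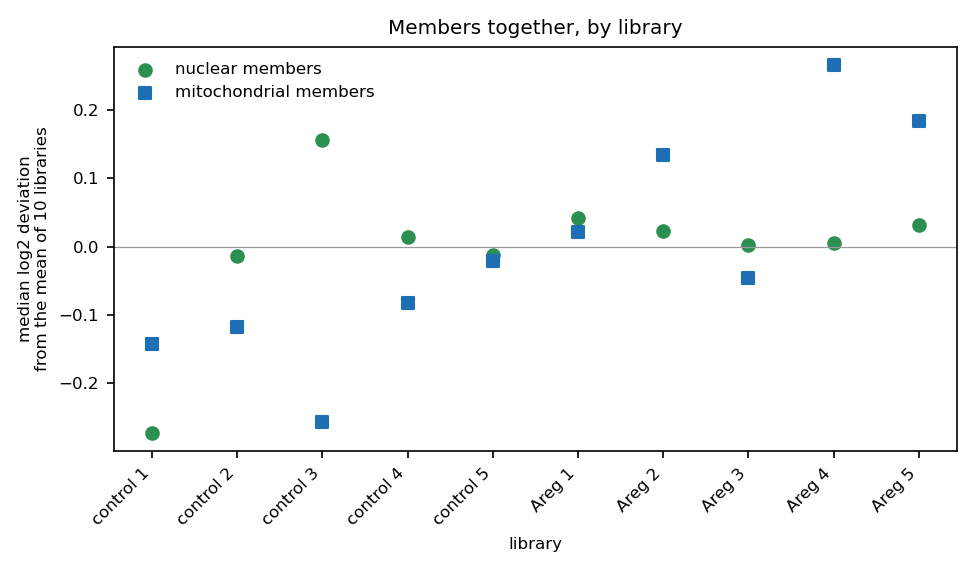
Median log2 deviation of the tested nuclear (green circles) and mitochondrial (blue squares) genes from their own mean over the 10 libraries, for each library on the horizontal axis. The nuclear medians of the controls run from -0.27 in control 1 to 0.16 in control 3, while those of the Areg libraries stay between 0.00 and 0.04. The mitochondrial medians are below 0 in all 5 controls and above 0 in 4 of the 5 Areg libraries.

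The mitochondrial genes with the largest rises were 3 complex I subunits and cytochrome b. They are mt-Nd2, mt-Nd1 and mt-Nd5, subunits of the membrane arm of complex I, and mt-Cytb, the heme-carrying core of complex III. On GRCm38 their genes lie at chrM:3914-4951, chrM:2751-3707, chrM:11742-13565 and chrM:14145-15288, all on the plus strand. Each had all Areg libraries above all controls.

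The mt-Nd2 values were 2416, 2473, 1926, 2279 and 2629.9 CPM in controls 1 to 5. In Areg libraries 1 to 5 they were 2810.0, 3190.5, 2696, 3350.0 and 3267 CPM. Control 3 was the lowest, and control 5 came closest to the lowest Areg library, which was Areg 3. The log2 fold change was 0.39 (SE 0.08, adjusted p = 0.00463). For mt-Nd1 the controls gave 2615, 2645, 2188, 2556 and 2756 CPM and the Areg libraries 3009, 3353, 2799, 3564 and 3435 CPM, a log2 fold change of 0.34 (SE 0.07, adjusted p = 0.00464), which did not pass with log2(TPM + 1). For mt-Nd5 they were 2245, 2275, 1923, 2268 and 2376 CPM against 2525, 2920.4, 2484, 3092 and 2842 CPM, with 0.32 (SE 0.07, adjusted p = 0.00485). In both genes control 3 was again lowest and Areg 4 highest. The mt-Cytb values were 2585, 2739, 2340.4, 2553 and 2781 CPM in the controls and 3032, 3356, 2889.8, 3482 and 3449 CPM with Areg. Its log2 fold change was 0.32 (SE 0.06, adjusted p = 0.00299), the smallest p among the mitochondrial genes.

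The same libraries were high or low in nearly every mitochondrial gene. Areg 4 held the highest value of the 10 libraries for 11 of the 13 genes, and control 3 the lowest for 8. Over all genes tested, Areg 4 was the highest for 9.86% and control 3 the lowest for 24%. The genes therefore do not count as separate observations of the treatment.

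The other mitochondrial genes that rose did so with groups that touched. They are mt-Nd4l and mt-Nd4, further membrane subunits of complex I that share a bicistronic messenger RNA, and mt-Atp6, the subunit a of the ATP synthase that forms its proton channel. The mt-Nd4l values were 440.5, 428, 392, 451 and 470.3 CPM in the controls and 465, 546, 456, 604 and 560.1 CPM with Areg (log2 fold change 0.27, SE 0.07, adjusted p = 0.0212). Areg 1 and Areg 3 lay below control 5. The mt-Atp6 values were 2470.0, 2555, 2503, 2664 and 2726 CPM against 2799, 3031, 2649, 3293 and 3148 CPM (0.21, SE 0.06, adjusted p = 0.0258). The mt-Nd4 values were 3279, 3127, 2854, 3333 and 3354 CPM against 3417, 3803, 3293, 4045 and 3745 CPM (0.20, SE 0.06, adjusted p = 0.0397). In both of these genes Areg 3 was the only Areg library below the highest control. Leaving out Areg 2, Areg 4 or Areg 5 alone, none of these 3 genes passed the test. Without control 3, mt-Nd4l and mt-Nd4 did not pass, and without control 2, mt-Nd4 did not. None of the 3 passed on log2(TPM + 1), on log2(TPM + 0.1) or with the effective length offset.

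The mitochondrial subunits of complex IV did not pass. They form the catalytic core of cytochrome c oxidase, with the copper and heme centres carried by mt-Co1 and mt-Co2. The mt-Co1 values were 8406, 8554, 8295, 9024 and 9075 CPM in the controls and 9157, 9693, 8799, 9826 and 9537 CPM with Areg, a log2 fold change of 0.12 (SE 0.05, adjusted p = 0.119). Only Areg 3 lay inside the range of the controls. The log2 fold change of mt-Co3 was 0.16 (SE 0.06, adjusted p = 0.0699), with 1844 ± 125 CPM in the controls and 2056 ± 120.2 CPM with Areg. mt-Atp8, a small membrane subunit of the ATP synthase whose gene overlaps that of mt-Atp6, had 379.5 ± 39.3 and 446 ± 52.3 CPM (0.23, SE 0.08, adjusted p = 0.0629). Whether complex IV differed from complex I was not tested.

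By TPM, averaged over the 10 libraries, mt-Atp8 (10785) and mt-Co1 (10604) had the highest levels and mt-Nd6 (24.9) the lowest. At 204 bases mt-Atp8 is the shortest of these genes, and TPM divides by an effective length that is smaller still. In CPM mt-Atp8 lay far below mt-Co1, so its top rank holds on the TPM scale only. mt-Nd6 is the only protein gene read from the opposite strand, overlaps the end of mt-Nd5, and its messenger RNA lacks a poly-A tail, so poly-A selection samples it poorly. Its values were 7.50, 5.75, 3.82, 4.09 and 8.21 CPM in the controls and 7.59, 3.84, 2.07, 3.70 and 6.41 CPM with Areg, with an adjusted p of 0.547. The setting of the counting with respect to strand is not given in the sources used here. Of the 31-base words of mt-Nd6, 7.36% also stood in other genes, whether the same strand or any strand was searched. For mt-Nd5 the share was 16.8% in either search. The overlap on opposite strands therefore added no shared word of that length. Whether the handling of strand affected the counts of mt-Nd6 was not tested.

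**Figure D3:**
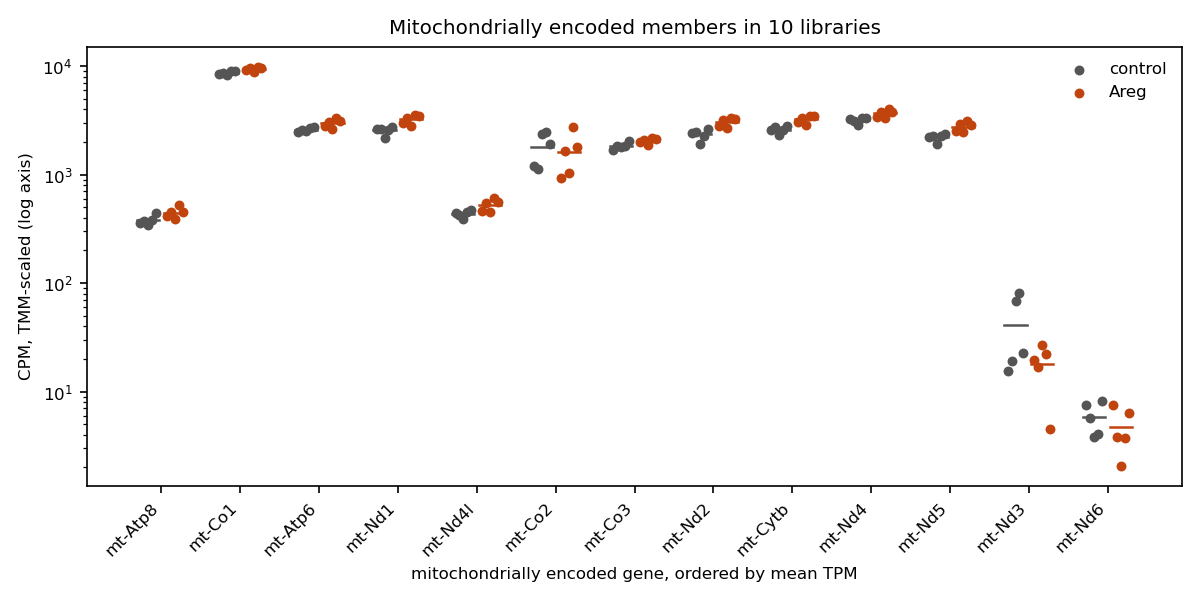
TMM-scaled CPM (vertical log axis) of the 13 mitochondrially encoded genes in the 5 control libraries (grey) and the 5 Areg libraries (orange), ordered by mean TPM along the horizontal axis; each point is a library and each bar the group mean. mt-Co2, mt-Nd3 and mt-Nd6 scatter widely within each group, while the other 10 genes keep within narrow ranges and have higher Areg means.

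Both mt-Co2 and mt-Nd3, which scattered widely between libraries, have nuclear copies. Stretches of mitochondrial DNA that were inserted into a chromosome are annotated as pseudogenes, and a block of them on chromosome 1 carries all or part of 7 of these genes. The counter used by the authors divides reads between identical sequences by estimation. For mt-Co2, the copy Gm28661 (chr1:24614885-24615565, minus strand) matches 681 of the 684 bases with 0 mismatches, and for mt-Atp6 the copy Gm10925 matches 678 of 681 with 0 mismatches. In both, the annotated copy lacks the final TAA codon. The last 40 bases of these genes are shown because the capitals mark the few bases by which a read could be told from the copy, at chrM:7657-7696 and chrM:8568-8607 on the plus strand of GRCm38:
mt-Co2: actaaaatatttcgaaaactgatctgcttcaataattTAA
mt-Atp6: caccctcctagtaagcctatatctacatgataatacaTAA
In mt-Nd3, the copy Gm28438 matches 345 bases with 1 mismatch. It is the substitution T3C, with positions counted from 1 at the 5′ end of mt-Nd3, where the mitochondrial base comes first. The first 23 bases are shown with that position in capitals, at chrM:9459-9481 on the plus strand and chr1:24613097-24613119 on the minus strand:
mt-Nd3: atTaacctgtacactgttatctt
Gm28438: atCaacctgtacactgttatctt

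The mt-Co2 values were 1196, 1133, 2348, 2494 and 1908 CPM in the controls and 923, 1657, 1036, 2733 and 1802 CPM with Areg. Those of its copy Gm28661 ran the other way, with 1065, 1261, 0, 0 and 668 CPM in the controls and 1680, 1165, 1370, 231 and 1059.9 CPM with Areg. Controls 3 and 4 held less than 1 estimated count on this copy. Summed with its copies, the gene had 2261 to 2577 CPM in the controls and 2406 to 2965 CPM with Areg, a log2 fold change of 0.18 (SE 0.06, adjusted p = 0.0519), against -0.16 (SE 0.37, adjusted p = 0.816) for mt-Co2 alone. The lowest Areg value of mt-Co2 alone was thus below the lowest control, and that of the sum was not.

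For mt-Nd3 the estimate gave most of the reads to the copy. mt-Nd3 had 15.4, 19.0, 68.1, 81.7 and 22.8 CPM in the controls and 19.7, 16.8, 27.0, 22.4 and 4.55 CPM with Areg, while Gm28438 had 109 ± 15.8 and 134 ± 16.4 CPM. The fitted log2 fold change of mt-Nd3 was -1.16 (SE 0.62, adjusted p = 0.248). For the sum it was 0.02 (SE 0.09, adjusted p = 0.927), from 150.4 ± 23.3 CPM in the controls and 152 ± 10.4 CPM with Areg. The copy ran partly the other way. It was lowest in control 4 (89.7 CPM), where mt-Nd3 was highest, and highest in Areg 5 (151.5 CPM), where mt-Nd3 was lowest. Control 1 was low for both (15.4 CPM for mt-Nd3 and 100.5 CPM for the copy). The sum ran from 116 CPM in control 1 to 172 CPM in control 3. Controls 3 and 4, the libraries that stood apart on the first principal component, were the highest for mt-Nd3 and still the highest in the sum.

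The copy of mt-Nd4, Gm28439 (876 of the 1378 bases, 0 mismatches), received reads almost only in the Areg libraries. It had 238, 1901, 104, 3075 and 3055 estimated counts in Areg libraries 1 to 5 and at most 0.663 in a control. Adding them to mt-Nd4 gave a log2 fold change of 0.24 (SE 0.07, adjusted p = 0.0266). For mt-Nd4l, whose copy Gm10222 is identical over 294 bases, all reads went to the mitochondrial gene. For mt-Co1, the copy Gm29216 matches 492 bases with 6 mismatches and had 935 ± 164 CPM in the controls and 958 ± 65.7 CPM with Areg. Summed, mt-Co1 kept a log2 fold change of 0.11 (SE 0.05, adjusted p = 0.162).

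The 6 mitochondrial genes that share at most 16.8% of their 31-base words with other genes held 4 of the 7 rises and had a median log2 fold change of 0.32. The 7 genes that share 62.8 to 100% held the other 3, with a median of 0.16. With every copy added to its gene, 7 mitochondrial genes rose, none fell, and 12 of 13 had a fold change above 0, at 8.3% called higher and 8.28% lower over all genes in that fit.

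**Figure D4:**
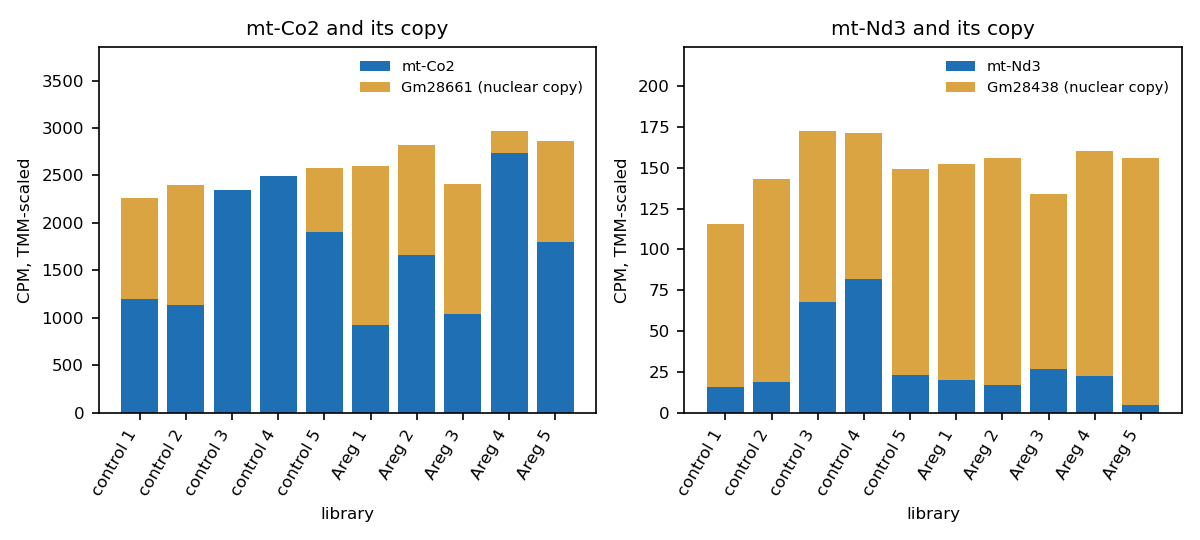
Stacked TMM-scaled CPM in each library of mt-Co2 with its nuclear copy Gm28661 (left) and of mt-Nd3 with Gm28438 (right), with the mitochondrial gene in blue and the copy in yellow. The split between gene and copy changes from library to library, while the height of the stack stays between 2261 and 2965 CPM for mt-Co2.

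Nuclear complex I genes showed little change. Of the 36 subunit genes tested, Ndufa5 rose and none fell, with a median log2 fold change of 0.04. The 7 core subunits, which carry the flavin and the iron-sulfur clusters, had a median of -0.08, and none passed the test. Among them Ndufs1, the largest iron-sulfur subunit, had 0.14 (SE 0.07, adjusted p = 0.202) and Ndufs7, which holds the last cluster before ubiquinone, had -0.16 (SE 0.12, adjusted p = 0.364). The 29 accessory subunits had a median of 0.04, from -0.27 for Ndufb4 to 0.35 for Ndufa5.

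Ndufa5, an accessory subunit of the matrix arm (chr6:24518666-24528013, minus strand), had 10.7, 11.2, 10.7, 12.7 and 12.7 CPM in the controls. In the Areg libraries it had 16.4, 15.2, 12.6, 14.8 and 15.4 CPM. Areg 3 was the only Areg library within the range of the controls. The log2 fold change was 0.35 (SE 0.09, adjusted p = 0.0140). It did not pass with log2(TPM + 1) (0.21, adjusted p = 0.168), log2(TPM + 0.1) (0.21, adjusted p = 0.166) or the effective length offset (0.24, adjusted p = 0.169). Ndufb3, a small membrane-arm subunit, had a value nearly as large (0.31, SE 0.12) but did not pass (adjusted p = 0.0784). By TPM, the highest nuclear complex I gene was Ndufa12 at 155 and the lowest was Ndufb4 at 11.7. The low value of Ndufb4 stood beside that of its processed pseudogene Ndufb4c, which had 14.7 ± 2.91 CPM in the controls and 17.5 ± 1.27 CPM with Areg, against 4.47 ± 0.866 and 3.63 ± 0.737 CPM for Ndufb4. Summed with Ndufb4c, Ndufb4 had a log2 fold change of 0.15 (SE 0.10, adjusted p = 0.348), so the sign turned.

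Of the 8 tested Nduf genes that encode assembly factors of complex I, Ndufaf4 rose and the other 7 did not pass. Ndufaf4 acts early in the building of the complex. Its gene lies at chr4:24898083-24905001 on the plus strand. It had 26.7, 28.8, 22.9, 27.4 and 25.5 CPM in the controls and 32.2, 34.1, 33.9, 33.97 and 33.2 CPM with Areg, so that each Areg library lay above each control. The log2 fold change was 0.35 (SE 0.06, adjusted p = 0.00165), the smallest p of the 13 genes that rose. Ndufaf2, the most abundant of these factors by TPM (29.3), had 0.21 (SE 0.10, adjusted p = 0.169), and Ndufaf3, the least abundant (3.38), had -0.23 (SE 0.22, adjusted p = 0.519).

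None of the 4 complex II genes passed, and all 4 had small positive fold changes. Sdha, the flavoprotein that oxidises succinate, had 129, 132, 117, 118 and 125 CPM in the controls and 137, 133, 129, 129 and 134 CPM with Areg (log2 fold change 0.09, SE 0.05, adjusted p = 0.200). The groups overlapped. Sdhb, the iron-sulfur subunit, had 41.5 ± 3.79 and 43.2 ± 1.07 CPM (0.06, SE 0.06, adjusted p = 0.526). The membrane anchors had 31.7 ± 2.83 and 33.98 ± 1.18 CPM for Sdhc (0.10, SE 0.07, adjusted p = 0.307) and 35.5 ± 2.52 and 37.3 ± 2.33 CPM for Sdhd (0.07, SE 0.06, adjusted p = 0.461). In TPM, Sdha stood at 86.9, Sdhb at 70.8, Sdhd at 55.4 and Sdhc at 43.8.

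In complex III, Uqcrb and Uqcrc2 rose among the 8 nuclear genes tested, and none fell. Uqcrb, a small subunit next to the ubiquinone site (chr13:66900617-66905378, minus strand), was also the most abundant of them at 312 TPM. It had 50.4, 64.8, 69.9, 61.3 and 66.7 CPM in the controls and 74.5, 77.6, 70.3, 86.1 and 82.9 CPM with Areg. The groups did not overlap, though control 3 and Areg 3 nearly met. The log2 fold change was 0.32 (SE 0.08, adjusted p = 0.0115), the same as that of mt-Cytb, its mitochondrial partner.

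Uqcrc2, a core subunit on the matrix side (chr7:120635176-120659524, plus strand), had 63.3, 77.3, 68.2, 67.9 and 75.9 CPM against 79.0, 84.7, 79.5, 78.3 and 84.6 CPM, also without overlap. Its log2 fold change was 0.20 (SE 0.06, adjusted p = 0.0263). Without control 1, control 4, Areg 2 or Areg 5 it no longer passed. Its partner Uqcrc1, the other core subunit and the least abundant gene of the complex (48.6 TPM), had -0.13 (SE 0.07, adjusted p = 0.187), and the Rieske iron-sulfur protein gene Uqcrfs1 had 0.06 (SE 0.07, adjusted p = 0.642).

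Nuclear complex IV held the only gene that fell and 1 that rose. Of its 20 nuclear genes by the symbol rule, 13 were tested, with a median log2 fold change of 0.01. Cox6c, a small membrane subunit (chr15:35925886-35938246, minus strand), rose. It had 41.2, 45.7, 45.9, 41.8 and 43.0 CPM in the controls and 53.9, 53.3, 49.3, 50.1 and 56.2 CPM with Areg. The groups were separated, with a log2 fold change of 0.27 (SE 0.06, adjusted p = 0.00387).

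Cox6b2 fell. It encodes the testis form of subunit VIb, and its gene lies at chr7:4751792-4753094 on the minus strand. It had 5.53, 5.15, 8.64, 6.13 and 5.17 CPM in the controls and 3.13, 2.15, 3.53, 2.49 and 2.74 CPM with Areg. All 5 Areg libraries were below the lowest control. The log2 fold change was -1.10 (SE 0.17, adjusted p = 0.000589), the smallest adjusted p and, in size, the largest fold change that passed among the 99 genes. Without controls 3 and 4 it was -0.90 (SE 0.17, adjusted p = 0.000717). In TPM it went from 29.1 ± 5.57 in the controls to 13.3 ± 3.20 with Areg. The common form Cox6b1 stood at 274 TPM over all libraries, with a log2 fold change of 0.11 (SE 0.10, adjusted p = 0.479).

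The other tissue-restricted forms were barely detected. Cox6a2, Cox7a1 and Cox8b, the striated muscle forms, Cox4i2, a form tied to low oxygen, and Ndufa4l2, a relative of Ndufa4 known from hypoxia, all stayed under 1 CPM in each library. The sperm form Cox8c and Cox7b2 had 0 estimated counts in all 10 libraries, which allows at most 0.15 to 0.296 CPM by library (3 counts, for counting error only). None of these 7 was tested. Among their common partners, Cox6a1 (304 TPM) had the highest level of nuclear complex IV. Its values were 53.7, 68.4, 115, 107 and 72.0 CPM in the controls and 65.0, 65.1, 68.7, 75.1 and 65.4 CPM with Areg. Controls 3 and 4 were far above the other 8 libraries, and the log2 fold change of -0.29 (SE 0.20, adjusted p = 0.378) did not pass. Cox4i1 had 0.01 (SE 0.07, adjusted p = 0.953), Cox7a2 0.16 (SE 0.10, adjusted p = 0.299), Cox8a -0.11 (SE 0.13, adjusted p = 0.588) and Ndufa4, now counted as a complex IV subunit, -0.04 (SE 0.11, adjusted p = 0.855). Cox7a2l, known for a part in joining complexes III and IV into supercomplexes, had 0.03 (SE 0.06, adjusted p = 0.785).

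Among the 17 tested nuclear genes placed in the ATP synthase by symbol, Atp5f1 rose and none fell. Atp5f1 encodes subunit b, the peripheral stalk that holds the catalytic head still. It had 90.8, 107, 100.3, 103 and 107 CPM in the controls and 117, 117, 113, 119 and 116 CPM with Areg. The 5 Areg libraries lay close together above all controls, with a log2 fold change of 0.20 (SE 0.05, adjusted p = 0.0141). The gene (chr3:105942698-105960099, minus strand) overlaps exons of Wdr77 on the opposite strand, which had 106 ± 6.20 CPM in the controls and 122 ± 5.43 CPM with Areg (0.21, SE 0.05, adjusted p = 0.0101). Without the strand setting, reads of the overlap cannot be told apart.

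Atp5c1, the rotating central stalk, also had all Areg libraries above the controls (51.2 ± 3.15 against 57.6 ± 3.33 CPM) but did not pass (0.17, SE 0.06, adjusted p = 0.0593). Atp5b, the catalytic beta subunit, had the highest level of all 94 nuclear genes at 553 TPM, with 581 ± 22.5 CPM in the controls and 572 ± 11.6 CPM with Areg (-0.02, SE 0.04, adjusted p = 0.759). Atp5s, which RefSeq names Dmac2l, had the lowest level among the tested genes placed in the complex by symbol, at 3.57 TPM (0.14, SE 0.25, adjusted p = 0.754). Atpif1, which encodes the inhibitor that blocks the enzyme when it would run backwards, lies outside the symbol rule and had 30.7 ± 5.74 and 29.6 ± 1.88 CPM (-0.04, SE 0.11, adjusted p = 0.821).

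The rotor ring of the ATP synthase is made of a subunit c that is encoded by Atp5g1, Atp5g2 and Atp5g3 with the same mature protein. Their log2 fold changes were -0.23 (SE 0.16), -0.40 (SE 0.36) and 0.03 (SE 0.07), and none passed (adjusted p = 0.367, 0.493 and 0.838). Atp5g2 had 6.64 ± 3.83 and 4.96 ± 1.56 CPM, less than its processed pseudogene Gm10175 with 38.3 ± 6.61 and 38.4 ± 2.20 CPM, so its level is uncertain, and the sum with its pseudogenes had a log2 fold change of -0.04 (SE 0.09, adjusted p = 0.805). A second gene model with the symbol Atp5o reads through to a neighbouring gene, shares 94% of its words with other genes and was not tested. In all, 30 of the 86 tested nuclear genes share exon bases with another annotated gene, which for Cox6c, Uqcrb and Uqcrc2 lies on the opposite strand. Of these partners, Vps13b beside Cox6c had 28.9 ± 4.03 and 27.5 ± 2.72 CPM, while those beside Uqcrb and Uqcrc2 stayed under 1 CPM on average.

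The calls also varied with the libraries that stood apart. Without controls 3 and 4, 10 nuclear genes rose and 1 fell, at 8.38% called higher and 7.53% lower over all genes in that fit. The additional ones were Ndufa12 (0.37, SE 0.09, adjusted p = 0.0117), Cox6b1 (0.27, SE 0.08, adjusted p = 0.0283), Uqcr10 (0.25, SE 0.08, adjusted p = 0.0415) and Cox5b (0.24, SE 0.07, adjusted p = 0.0301). In that fit 75 of 87 nuclear genes had a fold change above 0 and the median was 0.12. Without control 1, the library with the lowest nuclear values, the median was -0.01, and Uqcrq (-0.32, SE 0.07, adjusted p = 0.00962) and Ndufa7 (-0.34, SE 0.10, adjusted p = 0.0291) fell in addition to Cox6b2. The nuclear median thus had no fixed sign, and 5 mitochondrial genes rose without controls 3 and 4 (mt-Nd1, mt-Nd2, mt-Nd5, mt-Cytb and mt-Atp6) and 7 without control 1.

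Fold changes across the data set also varied with the GC content of the transcripts, and the mitochondrial genes lie at the low end. Their GC content was 31.9 to 41.1%, with a median of 37.1%, while the nuclear genes of the chain had 41.3 to 61.1%, with a median of 51.4%. Over all nuclear genes tested, the median log2 fold change was 0.15 for the 178 genes up to 38% GC and fell by bin to -0.24 for the 164 genes above 62%. In the GC range of the mitochondrial genes, 925 nuclear genes had a median of 0.13, and 15.1% of them were called higher. The 6 nuclear genes that rose had a GC content of 41.3% (Ndufaf4), 42.2% (Uqcrb), 45.5% (Uqcrc2), 47.2% (Atp5f1), 48.6% (Cox6c) and 49.3% (Ndufa5), all below the median of the nuclear genes of the chain. Cox6b2 had 55.7%.

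**Figure D5:**
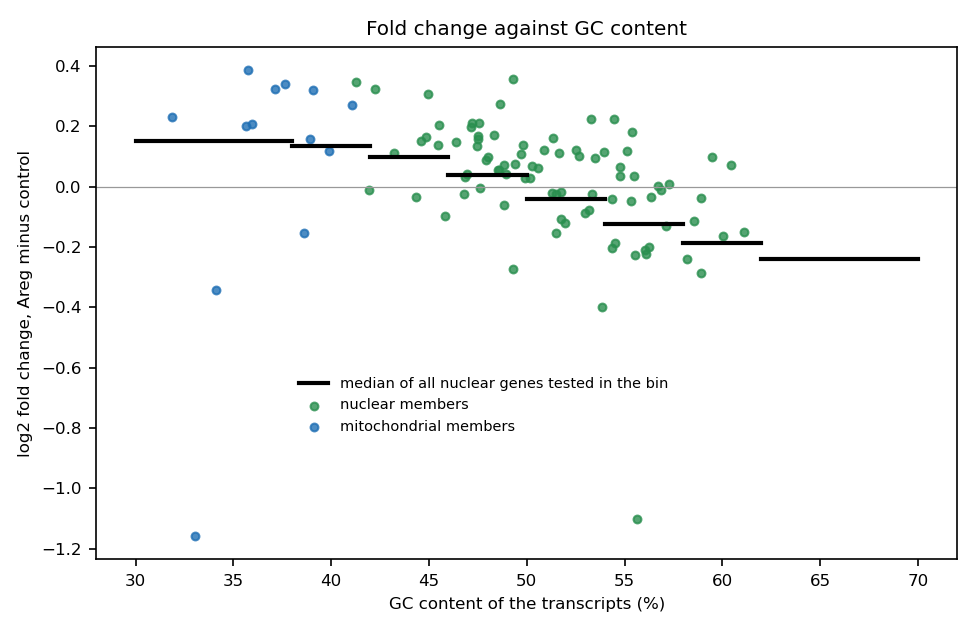
Log2 fold change (Areg minus control, vertical axis) against the GC content of each tested gene's transcripts (horizontal axis, %), with nuclear genes of the chain in green, mitochondrial genes in blue and black bars for the median of all nuclear genes in a GC bin. The bars step down from 0.15 to -0.24 (the outer bins run on beyond the plotted bars), and Cox6b2 at -1.10 lies far below them.

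When a trend in transcript length and GC content was removed from each library, none of the mitochondrial genes rose or fell and their median was -0.08, at 8.36% called higher and 5.19% lower over all genes. In that fit the nuclear median was 0.00. The nuclear genes that rose were Ndufaf4 (0.20, SE 0.06, adjusted p = 0.0259), Atp5f1 (0.11, SE 0.04, adjusted p = 0.0459), Ndufb7 (0.23, SE 0.06, adjusted p = 0.0172) and Ndufa13 (0.25, SE 0.07, adjusted p = 0.0158). Those that fell were Cox6b2 (-1.07, SE 0.15, adjusted p = 6.17e-05), Cox5a (-0.17, SE 0.05, adjusted p = 0.0238), Ndufa6 (-0.22, SE 0.07, adjusted p = 0.0499) and Ndufv2 (-0.22, SE 0.06, adjusted p = 0.0220). Ndufaf4, Atp5f1 and Cox6b2 were called in the same direction under all 29 alternative settings. Whether the rises of the mitochondrial genes and the trend in GC content share a source was not tested.

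Promoters of the nuclear genes were read from RefSeq, as 250 bases before to 50 bases after each annotated start on GRCm38.p6. Of the 93 nuclear symbols, 76 matched. The letters GCGCATGCG, from the palindromic site bound by the respiratory factor Nrf1, stood in 10 of the 76 (13.2%), against 406 of 10155 tested protein-coding genes (4.00%) and 457 of 17491 protein-coding genes (2.61%). The letters AAGATGGCG, read by Yy1, stood in 8 (10.5%), against 3.47% of tested and 2.14% of all protein-coding genes. The letters CCGGAAG of the ETS family, to which Gabpa belongs, stood in 18 (23.7%), against 19.3% and 12.9%, and the E-box CACGTG in 6 (7.89%), against 11.4% and 8.91%. Both strands were searched, and no matches of different motifs overlapped in these promoters. Of the 3 genes called higher with a promoter in the table, Ndufaf4 held the Nrf1 letters, Atp5f1 the E-box and Ndufa5 none of the 4 motifs.

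The Nrf1 match of Ndufaf4 is printed beside those of 4 genes that did not pass the test, to show that the same letters stand in very different surroundings. In these 5 the letters match on both strands. Each line gives 40 bases in the direction of the gene with the match in capitals. They come from chr4:24897955-24897994 (plus strand), chr17:56717687-56717726 (plus strand), chr5:115349096-115349135 (minus strand), chr5:108434425-108434464 (minus strand) and chr15:102671065-102671104 (minus strand), in the order of the lines:
Ndufaf4: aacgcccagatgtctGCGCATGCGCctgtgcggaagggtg
Ndufa11: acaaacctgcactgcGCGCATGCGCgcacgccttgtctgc
Cox6a1: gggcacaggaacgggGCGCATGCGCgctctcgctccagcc
Atp5k: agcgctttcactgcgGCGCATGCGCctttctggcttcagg
Atp5g2: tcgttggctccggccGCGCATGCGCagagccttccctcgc
Of these genes, Ndufaf4 had a log2 fold change of 0.35, while Ndufa11 had -0.24 and Cox6a1 -0.29 without passing the test. Atp5g2 had -0.40 alone and -0.04 (SE 0.09, adjusted p = 0.805) summed with its pseudogenes. Atp5k had 10.01 ± 3.89 CPM in the controls and 10.5 ± 1.69 CPM with Areg. A match is a description of the letters and not a bound site.

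Genes that regulate or serve the chain were counted in the same fit. Of 21 tested regulators of mitochondrial biogenesis, 4 rose and 1 fell, with a median log2 fold change of -0.02. Tfam, which packages and transcribes the mitochondrial genome, had 33.9 ± 2.65 CPM in the controls and 39.1 ± 1.42 CPM with Areg, without overlap (0.20, SE 0.06, adjusted p = 0.0325). Gabpa rose (0.25, SE 0.07, adjusted p = 0.0186), as did Ssbp1, which binds single-stranded mitochondrial DNA (0.29, SE 0.09, adjusted p = 0.0265). Ppargc1b, a coactivator of respiratory genes, fell from 2.90 ± 0.449 to 1.79 ± 0.379 CPM (-0.67, SE 0.19, adjusted p = 0.0209). Of the 29 alternative settings, the call of Tfam was lost in 15, that of Ssbp1 in 13, that of Ppargc1b in 12 and that of Gabpa in 7, with the direction kept. The losses came without control 3, control 4, or any of Areg 2 to 5 for Tfam, without control 1, Areg 2, Areg 4 or Areg 5 for Ssbp1, without control 4, Areg 2, Areg 4 or Areg 5 for Ppargc1b and without Areg 2 or Areg 5 for Gabpa, besides other settings. Of 22 genes for processing and stability of mitochondrial RNA, 5 rose and 2 fell, with a median of 0.06. Among them Pnpt1, the mitochondrial polynucleotide phosphorylase, rose from 30.6 ± 1.45 to 40.5 ± 1.61 CPM (0.40, SE 0.06, adjusted p = 0.00023), and Trmt10c, a part of the enzyme that frees tRNAs from the precursor, rose by 0.27 (SE 0.05, adjusted p = 0.00232). Ptcd3, a pentatricopeptide protein of the mitochondrial ribosome, rose by 0.31 (SE 0.07, adjusted p = 0.00771), and Fastk fell (-0.33, SE 0.09, adjusted p = 0.0268). The Fastk call was lost in 15 settings, among them those without control 3, control 4, Areg 1, Areg 2, Areg 3 or Areg 5, and its fold change was as small as -0.081, while Pnpt1 passed in all 29.

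Of 16 subunits and carriers that the symbol rule does not take, 2 rose and none fell. Cycs, cytochrome c itself, had 72.8 ± 7.97 CPM in the controls and 89.8 ± 4.23 CPM with Areg, with all Areg libraries above the controls (0.31, SE 0.07, adjusted p = 0.00634). Pdss1, which makes the side chain of ubiquinone, rose by 0.47 (SE 0.12, adjusted p = 0.0121). Among 42 tested assembly factors outside the rule, Oxa1l, the inner-membrane insertase, fell (-0.26, SE 0.08, adjusted p = 0.0377) and none rose. The Oxa1l call was lost in 14 of the 29 settings, among them limma-voom, both log2 TPM scales, the effective length offset and the fits without control 3, control 4, Areg 1, Areg 2, Areg 4 or Areg 5. Of 23 genes of the citric acid cycle and pyruvate dehydrogenase, 4 rose and 1 fell, with Idh3a at 0.32 (SE 0.06, adjusted p = 0.00364), Dld at 0.25 (SE 0.05, adjusted p = 0.00328), Pdha1 at 0.18 (SE 0.05, adjusted p = 0.0157) and Ogdh at -0.18 (SE 0.04, adjusted p = 0.0116). Of 78 mitochondrial ribosomal protein genes, 8 rose and none fell, with a median of 0.09. Mrpl19 had the smallest p of these (0.41, SE 0.07, adjusted p = 0.00132), followed by Mrpl50 (0.32, SE 0.06, adjusted p = 0.00161). The shares called in these lists stand beside 8.34% higher and 8.32% lower over all genes tested, and no list was tested as a whole. On both log2 TPM scales Idh3a, Dld, Pdha1, Ogdh, Pdss1, Ptcd3 and Mrpl19 did not pass. With the length and GC trend removed over all libraries, Cycs, Pdss1, Dld, Trmt10c, Tfam, Ssbp1, Gabpa, Ppargc1b and Fastk did not pass. In that fit Pnpt1, Ptcd3, Idh3a, Pdha1, Ogdh, Oxa1l, Mrpl19 and Mrpl50 still did.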

How the data were processed

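For each transcript the authors deposited estimated counts and TPM, along with its length and effective length, per the file headers. Among the tools listed in the submitters' processing notes are kallisto 0.44.0, DESeq2 and bcl2fastq 2.19, and the build is GRCm38.p6. Which transcripts were indexed and how strand was handled is not given in the sources used here. Of 118489 transcripts, 116816 matched GENCODE M21 on GRCm38, and the 1673 others (0.736 to 0.778% of the counts) entered no test.

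Estimated counts were summed per gene and rounded. Areg was compared with control by edgeR 4.0.16 (R 4.3.3, quasi-likelihood, robust, TMM factors, filterByExpr with minimum count 10 and total 15, no covariates), with Benjamini-Hochberg adjustment over 13362 genes and a threshold of 0.05. CPM are TMM-scaled. Means are given with their SD over 5 libraries. All replicate pairs differed by more than counting noise, with a chi-square of 3.6 to 46.5 for each degree of freedom.

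Tested on simulated data of this comparison (13362 genes, 200 changed in each of 5 runs), the test recovered 35.6% of 1.25-fold, 81.2% of 1.5-fold, 90% of 2-fold and 96.4% of 3-fold changes, with 6.77% false calls. The simulated counts were drawn independently for each gene, with no outlying library and no GC trend. These rates need not hold for the real libraries.

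Shared sequence was counted as 31-base words of the annotated transcripts on the same strand. Copies were pseudogenes holding at least 15% of a gene's words. GC content and length were weighted over a gene's transcripts.

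The members, lists and the rule for named genes were chosen with earlier results of these data known. Named are all mitochondrial genes, all nuclear members called, the highest and lowest by TPM of each complex, the complex II subunits, tissue forms with their partners, Cox7a2l, Atpif1 and up to 4 genes per list with the smallest p. Ndufs1, Ndufs7, Ndufb3, Uqcrfs1, Atp5c1, Atp5g1, Atp5g2, Atp5g3, Atp5k, Ndufa11, Wdr77, Vps13b, the copies and the genes called only in an alternative were named after their values were seen. Of the 29 alternatives, 24 were planned and 5 added after seeing the data (copies added, alone or with another change, and libraries left out in further fits). They cover other normalization factors, filters, DESeq2 1.42.0, limma 3.58.1 on voom weights or log2(TPM + 1) and log2(TPM + 0.1), an effective length offset, a length and GC trend, subsets of genes, the replicate block and libraries left out.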

Additional observations from a re-analysis of the deposited data

Results flagged for a closer look

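In 5 of 126 groups of 5 libraries looked at, 1 library stood far from the other 4 (gap over range above 0.71). Chance flags about 1 in 20 groups. For Cox6b2, control 3 had 8.64 CPM while the other controls had 5.15 to 6.13 CPM. For Sdhc, control 1 had 26.8 CPM while the others had 32.0 to 33.5 CPM. For mt-Nd5, control 3 had 1923 CPM while the others had 2245 to 2376 CPM. Among the Areg libraries, Fastk had 39.9 CPM in Areg 4 against 34.6 to 35.8 CPM, and Pdha1 had 136 CPM in Areg 3 against 140.4 to 141.5 CPM. Control 3 is thus the library that stands apart in 2 of the 3 control groups, and control 1 in the third.

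The pseudogene Gm28439, an exact copy of a stretch of mt-Nd4 on chromosome 1, is outside the symbol rule and held up to 3075 estimated counts in an Areg library (lowest Areg library 104), with at most 0.663 in a control. How much of this belongs to mt-Nd4 was not tested.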

How the results depend on the processing

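The count of all genes called was 2226 and became 856 with log2(TPM + 1), 868 with log2(TPM + 0.1), 1149 with the effective length offset and 1364 to 2314 with 1 library left out. Of the 99 genes of the chain, 14 were called, and 10 to 16 with 1 library left out. With the length and GC trend removed 8 were called, 7 when controls 3 and 4 were also left out and 8 when copies were also added. Nuclear genes called higher numbered 6, and 10 without controls 3 and 4 (10 also with nuclear genes fitted alone and 10 with copies added), with 5 to 8 when 1 library was left out. With log2(TPM + 1) the count stayed at 6, with Ndufs5 in place of Ndufa5. Nuclear genes called lower numbered 1, 4 with the trend removed, 3 with copies added and the trend removed, and 1 to 3 with 1 library left out. Mitochondrial genes called higher numbered 7, 3 with log2(TPM + 1), 4 with log2(TPM + 0.1), 4 with the effective length offset, 4 to 9 with 1 library left out, and 0 in the 3 fits with the trend removed. In 2 of these (without controls 3 and 4, and with copies added) 1 was called lower.

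The mitochondrial median of 0.21 became -0.077 with the trend removed, -0.0030 when controls 3 and 4 were also left out and -0.057 with copies added, and 0.17 to 0.25 with 1 library left out. The nuclear median was -0.01 to 0.08 with 1 library left out. In the same 3 fits mt-Atp6 had -0.080, -0.022 and -0.057 and mt-Nd4l -0.045, -0.17 and -0.042. mt-Nd4 had -0.041 in the first and mt-Atp8 -0.35 in the second. The causes of these changes were not tested. Fits of nuclear genes alone give no mitochondrial value.

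The deviations of same-numbered libraries from their group means correlated at 0.05, 0.09, -0.05, 0.14 and 0.00. Whether same-numbered libraries share an animal or culture is not in the labels and was not tested. With the replicate number as a block, 2357 genes were called, with 6 nuclear genes higher, 1 lower and 9 mitochondrial genes higher. What depth alone limits was not tested.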
